A study of Caenorhabditis elegans with 2 samples.

Results

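The 7 genes described here encode the RNA of RNase P (rpr-1), the RNA of RNase MRP (mrpr-1), the RNA of the signal recognition particle, SRP (srpr-1.1, srpr-1.2, srpr-2.1 and srpr-2.2), and the Y RNA (yrn-1) of Caenorhabditis elegans. They were chosen by name from the 46890 nuclear genes of the Ensembl annotation of WBcel235, the assembly also called ce11, and each gene was taken with 200 bp to either side. Ensembl gives all 7 as noncoding RNA genes, and RefSeq calls yrn-1 a small cytoplasmic RNA. The data are chromatin immunoprecipitation sequencing (ChIP-seq) of ZTF-25, which its name puts among the zinc finger factors, in 2 biological replicates of 1 group. Both replicates were whole worms of strain RW12287. Its allele st12287, a CRISPR insertion on chromosome V, adds TY1, EGFP and 3xFLAG to ztf-25 itself. The worms were collected as young adults at 63 hours after starvation at the first larval stage, and an antibody against GFP was used. There is no second condition, no untagged sample was analysed here, and whole worms do not show in which cells a peak arose.

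RNase P is an RNA enzyme that cuts the leader from the 5′ end of transfer RNA (tRNA) precursors, and RNase MRP is a related enzyme that acts on ribosomal RNA precursors. The SRP brings ribosomes that are making secreted proteins to the endoplasmic reticulum, and Y RNAs are bound by the Ro60 protein, ROP-1 in the worm. Such RNAs are made by RNA polymerase III, the polymerase of tRNA genes. In vertebrates the genes for the RNase P, MRP and Y RNAs are driven from a TATA box and a further element upstream of the RNA, whereas tRNA genes carry their A and B boxes inside the transcribed sequence.

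The sequences of mrpr-1 and yrn-1 are shown because their upstream regions hold the same pair of short words, while the peaks at them differed. Each is the RefSeq WBcel235 (ce11) sequence of the gene's own strand, read 5′ to 3′, and starts 70 bases before the RNA. The stretch for mrpr-1 is chrII:7200163-7200418 on the plus strand, and that for yrn-1 is chrIV:7499438-7499612 on the plus strand. Capitals mark TGTCNGNC, where N is any base, and then TATATA, including overlapping copies of it. The TATAAA that overlaps TATATA in mrpr-1 was not itself marked, so its end is in lower case.
mrpr-1: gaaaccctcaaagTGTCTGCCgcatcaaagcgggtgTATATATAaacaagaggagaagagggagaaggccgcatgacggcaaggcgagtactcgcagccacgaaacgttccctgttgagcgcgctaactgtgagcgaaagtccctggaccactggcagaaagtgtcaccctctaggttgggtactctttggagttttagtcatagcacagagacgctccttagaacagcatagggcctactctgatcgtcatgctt
yrn-1: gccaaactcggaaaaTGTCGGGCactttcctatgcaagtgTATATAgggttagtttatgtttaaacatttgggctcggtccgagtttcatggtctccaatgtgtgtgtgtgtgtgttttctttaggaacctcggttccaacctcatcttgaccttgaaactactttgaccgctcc
In mrpr-1, TATATA started 34 and 32 bases before the RNA, overlapping itself and a TATAAA at 30 bases, and TGTCNGNC started 57 bases before it. In yrn-1, TATATA started 30 bases before the RNA and TGTCNGNC 55 bases before it, with a further TATATA at 83 bases that lies outside the stretch shown.

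The 4 SRP RNA genes carry nearly the same RNA, behind upstream sequence that is alike only between srpr-1.1 and srpr-1.2. The longest stretch below, of srpr-1.2, is chrIII:4369408-4369687 (plus strand), which is 60 bases upstream and the first 220 bases of the RNA. The others are 60 bases upstream and 30 bases of the RNA, at chrIII:4379177-4379266 (minus strand) for srpr-1.1, chrIII:5211160-5211249 (plus strand) for srpr-2.1 and chrIII:5031679-5031768 (minus strand) for srpr-2.2, all from RefSeq WBcel235 (ce11) and read on the gene's strand. Capitals in srpr-1.2 mark a match to GGTTC, any 4 bases, then CC, a loose form of the B box.
srpr-1.2: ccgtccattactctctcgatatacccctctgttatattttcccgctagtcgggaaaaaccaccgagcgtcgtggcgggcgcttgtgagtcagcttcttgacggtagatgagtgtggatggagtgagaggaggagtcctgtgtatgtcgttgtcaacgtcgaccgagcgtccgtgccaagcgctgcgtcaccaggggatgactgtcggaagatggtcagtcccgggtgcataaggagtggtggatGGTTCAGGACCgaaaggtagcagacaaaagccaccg
srpr-1.1: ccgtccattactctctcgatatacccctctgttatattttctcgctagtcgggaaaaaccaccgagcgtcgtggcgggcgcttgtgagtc
srpr-2.1: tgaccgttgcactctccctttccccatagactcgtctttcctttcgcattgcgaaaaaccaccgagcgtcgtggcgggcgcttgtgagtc
srpr-2.2: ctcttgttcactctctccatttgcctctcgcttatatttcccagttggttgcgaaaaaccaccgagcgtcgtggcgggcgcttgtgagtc
Over the whole RNA, srpr-1.1 and srpr-1.2 were 98.3% identical (5 of 299 aligned bases differ), srpr-2.1 and srpr-2.2 were 99.0% identical (3 differ), and genes of different pairs were 94.0 to 94.3% identical. Over the 100 bases upstream, srpr-1.1 and srpr-1.2 were 95.0% identical, and the other 5 pairs were 45.1 to 59.0% identical.

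Peaks reached the thresholded lists at RNase P, RNase MRP and some SRP RNA genes, and at no Y RNA gene. In the conservative list, which holds 1092 peaks that repeat between both libraries, rpr-1, mrpr-1, srpr-1.2 and srpr-2.1 had a peak, and srpr-1.1, srpr-2.2 and yrn-1 had none. That is 4 of 7 genes, against 3.58% of all nuclear genes with a conservative peak within 200 bp. The combined list of 1368 peaks added srpr-2.2, making 5 of 7, against 4.32% of all genes. The list of replicate 1 alone (515 peaks) had rpr-1, mrpr-1 and srpr-1.2, against 1.93% of all genes, and the list of replicate 2 alone (295 peaks) had rpr-1 and mrpr-1, against 1.08%. The genes were chosen by name, with earlier results of these data known, so the counts are given as a description without a test.

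The ranked lists, which keep weak peaks too, placed a peak at all 7 genes, but they do so for most genes. The ranked comparison of the libraries holds 104189 peaks, and 63.6% of all nuclear genes have one within 200 bp. The shares of all genes were 66.3% in the ranked list of the pooled libraries, 51% in that of replicate 1 and 50.2% in that of replicate 2, and each list had a peak at 7 of 7 RNA genes. The ranked comparison covers 27.9% of the nuclear genome and the conservative list 0.293%. Presence in a ranked list therefore says little about a gene, and signal, rank and reproducibility are given below. Signal is the authors' own value for a peak, on a scale that is not stated, and it is used only within a list. Reproducibility is the irreproducible discovery rate (IDR), given by the authors as −log10, so that 2 means an IDR of 0.01 and larger values mean ranks that repeat better between calls.

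**Figure D1:**
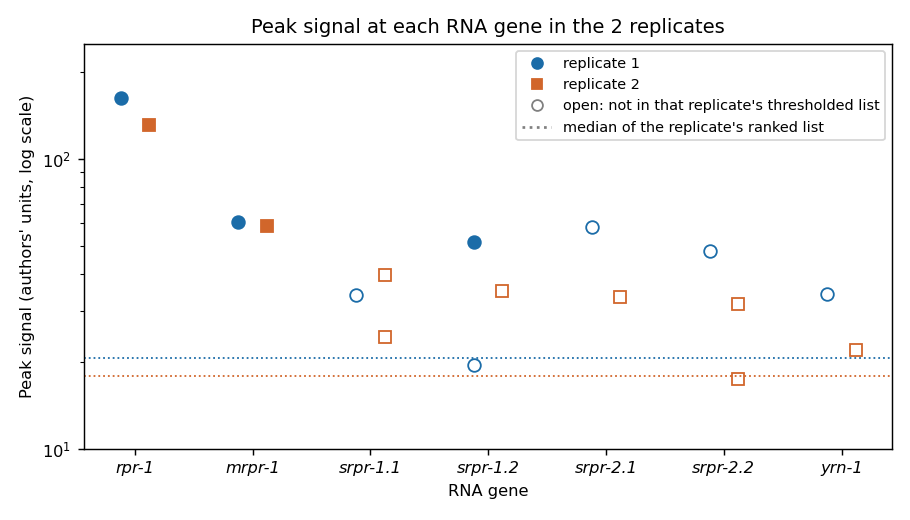
Signal of each peak within 200 bp of the 7 RNA genes in the ranked lists of replicate 1 (circles) and replicate 2 (squares), in the authors' units on a log axis, where filled symbols are peaks that are also in that replicate's thresholded list and dotted lines are the medians of the ranked lists. The gene rpr-1 stands highest in both replicates at 162.4 and 131.7, mrpr-1 lies near 60 in both, and the symbols of srpr-1.1, srpr-2.1, srpr-2.2 and yrn-1 are all open.

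The RNase P RNA gene carried the strongest peak of the 7. The gene rpr-1 (WBGene00045238) spans chromosome I, 13463955 to 13464207, plus strand, ce11. Its signal was 162.4 in replicate 1, 131.7 in replicate 2 and 295.3 in the conservative list. It ranked 11 of 515, 13 of 295 and 9 of 1092 in those lists, so it stood near the top of each. Its −log10 IDR was 4.85 between the libraries, where the highest value of any peak was 5, and 4.89 in the pooled list. It was 5.0 in the ranked list of replicate 1 and 4.95 in that of replicate 2. The summit, the base of highest signal, was 2 bp downstream of the RNA's 5′ end in the conservative list, 9 bp downstream in replicate 1 and 3 bp upstream in replicate 2. The conservative peak was 154 bp wide (13463890 to 13464043), 1 of 34 in that list narrower than the full 276 bp. The 100 bases upstream held TATATA at 30 bases and TGTCNGNC at 55 bases before the RNA, and they were 69.0% G or C, against 34.0 to 51.0% in the other 6 genes.

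The gene rpr-1 lies inside an intron of ints-8, which is transcribed from the opposite strand and encodes a subunit of Integrator, the complex that cleaves small nuclear RNA precursors. The nearest protein-coding 5′ end to the rpr-1 summit, that of an ints-8 transcript, was 889 bp away. A separate conservative peak, with a signal of 84.4 (rank 741), lay at the 5′ end of the whole ints-8 gene at 13470337 to 13470612, which is 6129 bp from rpr-1. It was in neither replicate's thresholded list, whereas the rpr-1 peak was in both.

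The RNase MRP RNA gene had a reproducible peak of intermediate signal. The gene mrpr-1 (WBGene00045095) spans chromosome II, 7200233 to 7200418, plus strand. Its signal was 60.5 in replicate 1, 59.0 in replicate 2 and 120.8 in the conservative list. The ranks were not near the top of each list: 397 of 515, 185 of 295 and 258 of 1092. The −log10 IDR was 3.17 between the libraries, 3.35 in the pooled list, 2.34 in replicate 1 and 2.39 in replicate 2, so each of the 4 ranked lists placed it past 2. The summit lay 104 bp into the RNA of 186 bases in the conservative list, 41 bp in replicate 1 and 105 bp in replicate 2. The gene is intergenic, 130 bp before pcrg-1 and 667 bp from E04F6.6. Its conservative summit was 212 bp upstream of pcrg-1, and this 1 peak also lay in the promoter windows of both neighbours, so the lists alone do not assign it to 1 of the 3 genes. A promoter window here runs from 1000 bp upstream to 500 bp downstream of a protein-coding 5′ end.

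The SRP RNA genes had weaker peaks than rpr-1 and mrpr-1 in each list that held both kinds. At srpr-1.2 (WBGene00045168, chromosome III, 4369468 to 4369766, plus strand) the signal was 51.9 in replicate 1, 35.1 in replicate 2 and 87.1 in the conservative list, rank 683 of 1092. At srpr-2.1 (WBGene00195016, chromosome III, 5211220 to 5211518, plus strand) it was 58.5 in replicate 1, 33.4 in replicate 2 and 86.5 in the conservative list, rank 693. Both conservative values lay below that list's median of 93.9, whereas those of rpr-1 and mrpr-1 lay above it. The −log10 IDR between the libraries was 2.39 at srpr-1.2 and 2.36 at srpr-2.1, close to each other and a little past 2. Within replicate 2 it was 0.766 and 0.805, and within replicate 1 it was 2.01 and 1.77. The srpr-1.2 peak was thus in the thresholded list of replicate 1 (rank 492 of 515) and the srpr-2.1 peak in neither replicate's list, although within the ranked list of replicate 1 srpr-2.1 had the higher signal of these genes.

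At srpr-2.2 (WBGene00195017, chromosome III, 5031410 to 5031708, minus strand) the peak was in the combined list but not in the conservative one. It had a combined signal of 73.2 (rank 1135 of 1368). The ranked comparison set a signal of 48.3 in its first library column against 17.4 in its second, a ratio of 2.78. Its −log10 IDR was 2.42 in the pooled list and 0.636 between the libraries, so it passed 2 only where the libraries had been merged. Replicate 2 had 2 peaks there in its ranked list, 1 with a signal of 31.7 and a summit 236 bp into the RNA, and 1 with a signal of 17.4 and a summit 9 bp into it. Both overlap the peak of the ranked comparison, whose second column holds the value of the weaker one. The ratio of 2.78 thus depends on which of them was matched.

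At srpr-1.1 (WBGene00045189, chromosome III, 4378909 to 4379206, minus strand) no thresholded list had a peak. The ranked comparison had a pair of weak ones. The first, with a signal of 55.0 and a summit 25 bp into the RNA, had a −log10 IDR of 0.704. The second, with a signal of 47.6 and a summit 44 bp past the RNA's 3′ end, had a −log10 IDR of 1.16. In the library columns the first read 20.7 and 39.8, and the second 33.8 and 24.4, so the libraries favoured different ends of the gene. At srpr-1.2 a second weak peak in the ranked comparison, with a signal of 41.4 and a −log10 IDR of 0.309, lay 174 bp past the 3′ end.

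The Y RNA gene yrn-1 (WBGene00006967, chromosome IV, 7499508 to 7499612, plus strand) had no peak in a thresholded list. Its signal was 34.2 in replicate 1, 22.0 in replicate 2 and 57.5 in the ranked comparison, where it ranked 4517. These values lie above the medians of the ranked lists, 20.6, 17.8 and 26.3. The −log10 IDR was 0.992 between the libraries, 1.46 in the pooled list, 0.470 in replicate 1 and 0.188 in replicate 2, so no ranked list placed it at 2. The summit was 28 bp into the RNA in the ranked comparison, 19 bp upstream of it in replicate 1 and 62 bp into it in replicate 2.

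**Figure D2:**
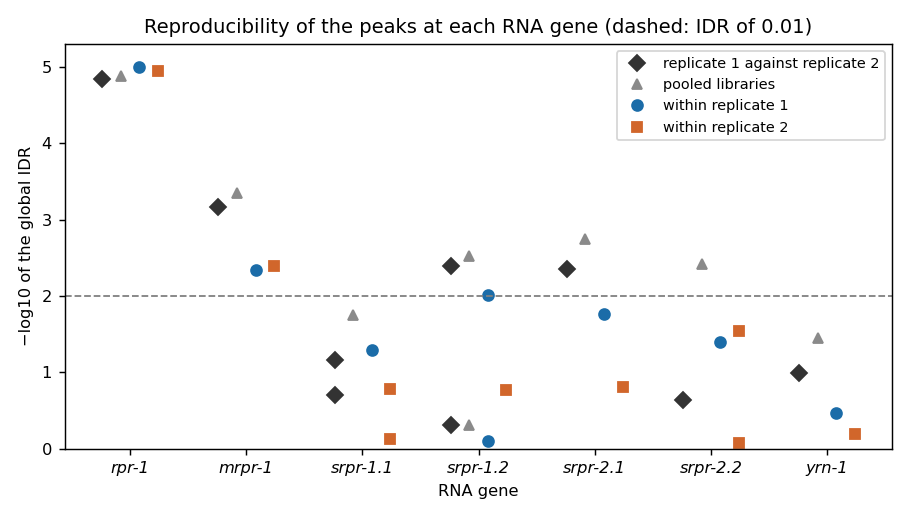
The −log10 IDR of each peak within 200 bp of the 7 RNA genes, in the comparison of the replicates (diamonds), the pooled libraries (triangles) and the ranked lists of replicate 1 (circles) and replicate 2 (squares), with the dashed line at 2, an IDR of 0.01. All symbols of rpr-1 and mrpr-1 lie above the line, srpr-1.2, srpr-2.1 and srpr-2.2 have symbols on both sides, and those of srpr-1.1 and yrn-1 lie below it.

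The order of the genes by the lowest IDR of any of their peaks between the libraries was rpr-1, mrpr-1, srpr-1.2, srpr-2.1, srpr-1.1, yrn-1 and srpr-2.2. At an IDR of 0.001, rpr-1 and mrpr-1 had a peak, at 0.01 srpr-1.2 and srpr-2.1 joined them, and at 0.1 srpr-1.1 did too. The share of all genes was not computed at 0.001 or 0.1, so nothing is read from the counts there. The srpr-1.1 peak counted here is the one past the 3′ end of the RNA, with an IDR of 0.0692. Its peak on the RNA had an IDR of 0.198, higher than the 0.102 of yrn-1, which lay just outside the limit of 0.1. The steps from rpr-1 to mrpr-1 and on to the SRP RNA genes are wide, while srpr-1.2 and srpr-2.1 are next to equal in signal and IDR. With 2 libraries there is no test of the difference between neighbours in this order. The ratio of the first to the second library column was 1.23 at rpr-1, 1.03 at mrpr-1, 1.48 at srpr-1.2, 1.75 at srpr-2.1, 2.78 at srpr-2.2 and 1.56 at yrn-1. The value at srpr-2.2 rests on the weaker of its 2 peaks in replicate 2. At srpr-1.1 it was 0.522 for the peak on the RNA, the only value below 1, and 1.39 for the peak past the 3′ end. Over all conservative peaks the median ratio was 1.25, with quartiles of 1.03 and 1.50, so rpr-1 and srpr-1.2 lay between the quartiles, srpr-2.1 above the upper one and mrpr-1 just below the lower one. The columns name no replicate, but 49.6% of the first column's values are found in the ranked list of replicate 1, against 1.74% in that of replicate 2.

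**Figure D3:**
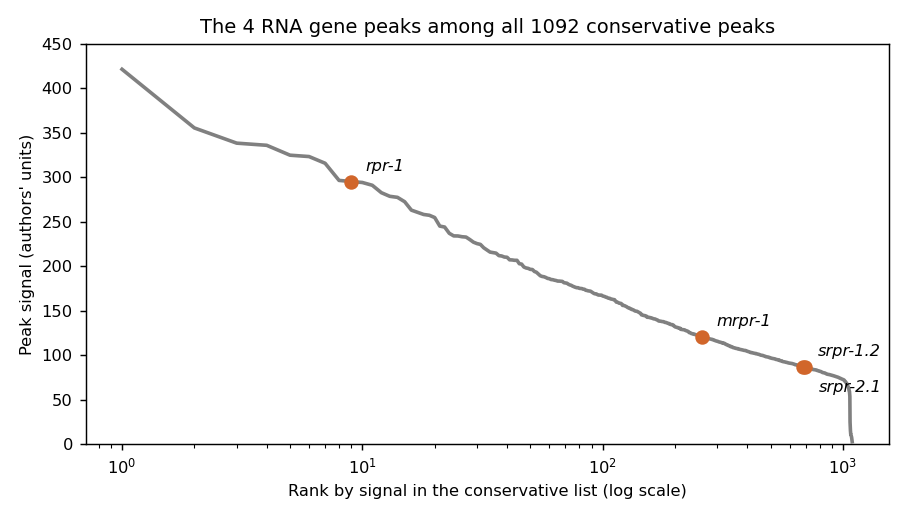
Signal of all 1092 conservative peaks in the authors' units against their rank (log axis), with the 4 peaks at RNA genes marked. The peak at rpr-1 is ninth in rank at 295.3, mrpr-1 lies at 120.8, and srpr-1.2 and srpr-2.1 share the lower part of the curve at 87.1 and 86.5.

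Each ranked list also sets a first and a second call against each other, and gives a signal from each. In the ranked list of replicate 1 these were 80.6 and 78.1 at rpr-1, and in that of replicate 2 they were 67.1 and 66.1, so the calls were nearly equal there. At mrpr-1 they were 28.7 and 32.8 in replicate 1 and 31.5 and 25.6 in replicate 2. At srpr-1.2 they were 23.1 and 41.6 in replicate 1 and 17.0 and 19.5 in replicate 2. The calls were less even at srpr-1.2 than at the RNase P gene in replicate 1. At srpr-2.1 they were 33.3 and 22.4 in replicate 1 and 17.3 and 19.7 in replicate 2. At yrn-1 they were 15.7 and 21.0 in replicate 1 and 12.9 and 11.8 in replicate 2. In the list of the pooled libraries, the calls gave 152.4 and 138.7 at rpr-1, and 40.2 and 39.7 at srpr-2.2. The last pair was even, in contrast to the 48.3 and 17.4 that the comparison of the libraries gave for the same srpr-2.2 peak. What the first and second call within 1 replicate were made from is not given in the sources used here.

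Summits fell on the RNAs themselves in the conservative and combined lists, but not always in the single replicates. In the conservative list all 4 summits lay inside the RNA, 2 bp (rpr-1), 49 bp (srpr-1.2), 61 bp (srpr-2.1) and 104 bp (mrpr-1) downstream of the 5′ end, a median of 55 bp. In the combined list srpr-2.2 joined at 72 bp, so all 5 lay inside. The median was 9 bp over the 3 genes of replicate 1, of which 2 had the summit inside, and 51 bp over the 2 genes of replicate 2, of which 1 did. At srpr-1.2 the summit of the strongest ranked peak lay upstream of the RNA in both replicates, by 4 bp in replicate 1 and 57 bp in replicate 2. At srpr-2.1 the ranked summit was at 61 bp in replicate 1 and 229 bp in replicate 2. The strongest ranked peak had its summit at 341 bp in replicate 1 and 23 bp in replicate 2 at srpr-1.1, and at 66 bp and 236 bp at srpr-2.2, although replicate 2 had a second, weaker peak at each of these genes, with summits at 346 bp and 9 bp. Fragments ran from 200 to 800 bp per the labels, which is long against RNAs of 105 to 299 bases, and the lists alone do not resolve a summit to an element upstream or inside such a gene.

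**Figure D4:**
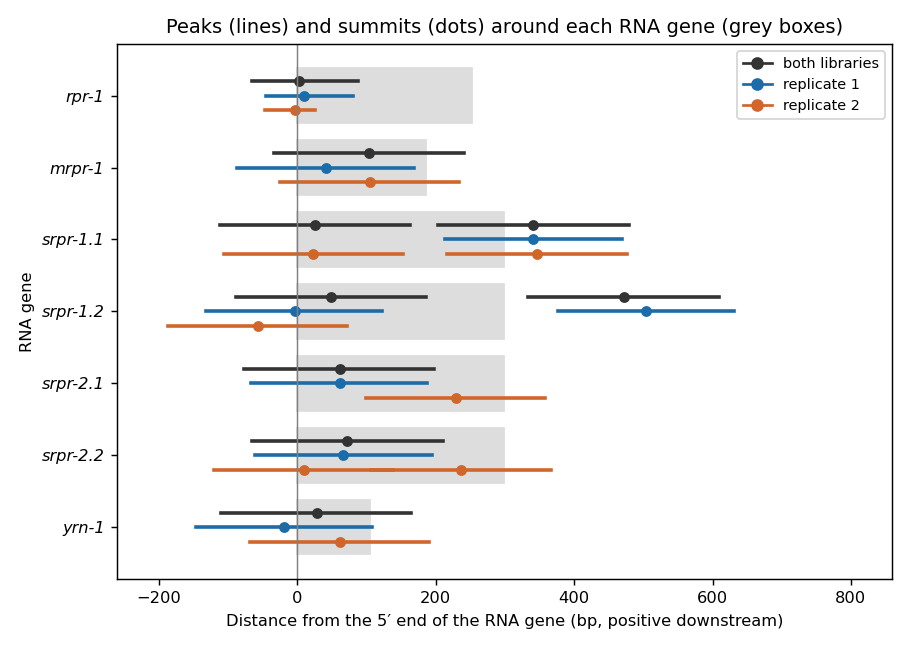
Peaks (lines) and summits (dots) of the ranked lists around each RNA gene (grey box), in bp from the 5′ end with downstream positive, for both libraries compared, replicate 1 and replicate 2. The summits of rpr-1 lie within 9 bp of the 5′ end in all 3, whereas those of srpr-2.1 lie at 61 and 229 bp in the replicates.

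Copies of the SRP RNA gene share sequence, which bears on how reads could be placed. Of the 50-base words in the gene, 23.3% occurred once in the genome for srpr-1.1, 41.2% for srpr-1.2, 38.8% for srpr-2.1 and 40.4% for srpr-2.2. With words of 100 bases the shares were 54.3%, 54.5%, 70.5% and 70.5% in the same order, so srpr-1.1 and srpr-1.2 were then alike. The share was 100% for rpr-1, mrpr-1 and yrn-1 at both lengths. The gene srpr-1.1, with no thresholded peak, has nearly the same RNA and upstream sequence as srpr-1.2, which had one. Neither the read length nor the treatment of reads that match several places is given in the sources used here, so values at the 4 SRP genes are uncertain as values of single copies, and the part of shared sequence in them was not tested. A further gene named for SRP RNA, srpr-3 (WBGene00195018, chromosome V, 9293334 to 9293632, minus strand), was not among the 7. The gene srpr-3 has 80.9 to 81.6% identity to the 4 SRP RNA genes, with 100% of its 50-base words found once. It too had no thresholded peak, and its ranked comparison peak had a signal of 62.8 and a −log10 IDR of 1.41.

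The surroundings of the SRP and Y RNA genes held no other peaks in the thresholded lists, apart from that of srpr-1.2, which was 9254 bp from srpr-1.1 and the only one within 10000 bp of it. The gene srpr-1.2 lies in an intron of ckb-2, a choline kinase gene on the same strand, and srpr-2.2 in an intron of klp-6, a kinesin gene on the opposite strand, with 39 bp inside an exon of the noncoding RNA R144.16. The gene yrn-1 lies in an intron of F55G1.15 and wholly within the noncoding RNA F55G1.20, both on the opposite strand. The gene srpr-1.1 sits between pals-26 (1 bp away) and B0284.3 (114 bp), and srpr-2.1 between syx-16, a syntaxin gene (2110 bp), and ZC155.4 (262 bp). No promoter window of these host and neighbouring protein-coding genes held a summit of any thresholded list. Over all 19973 protein-coding genes, a promoter window held a conservative summit in 2.82% and a combined one in 3.64%.

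Set beside other short RNA genes, the 7 were closest in share to tRNA genes. A conservative peak lay within 200 bp of 323 of 612 tRNA genes (52.8%), 63 of 346 small nucleolar RNA (snoRNA) genes (18.2%), 15 of 129 small nuclear RNA (snRNA) genes (11.6%) and none of 20 ribosomal RNA genes. Among genes of 100 to 300 bp with the 7 left out, 193 of 6295 (3.07%) had one. With 7 genes, of which 4 are near copies, no difference from any class was tested. By signal, the rpr-1 peak at 295.3 was above every conservative peak at a tRNA gene, where the highest was 244.1 and the median 105.3, and below the highest at a snoRNA gene, 336.1. The mrpr-1 peak at 120.8 lay above the tRNA median and below the snoRNA median of 129.6, and both SRP peaks lay below the snRNA median of 96.7.

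**Figure D5:**
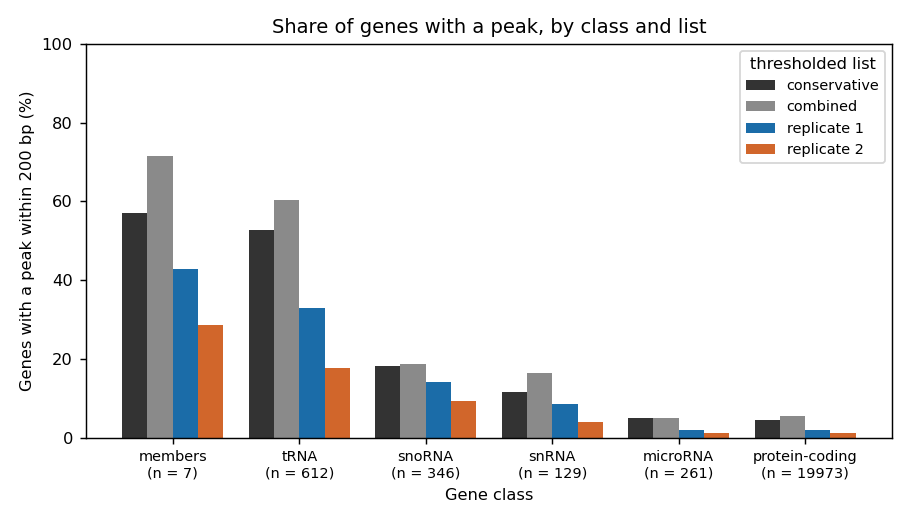
Share of genes (%) with a peak within 200 bp in the 4 thresholded lists, for the 7 RNA genes (members) and for tRNA, snoRNA, snRNA, microRNA and protein-coding genes, with the number of genes under each class. The bars of the 7 genes stand for 4, 5, 3 and 2 genes, and tRNA genes are the other class with a conservative share above 50%, at 52.8%.

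The genes divide by sequence into those with the upstream pair of words and those without, and peaks were found in both groups. TATATA starting 28 to 32 bases upstream on the gene's strand was found at rpr-1, mrpr-1 and yrn-1 and at none of the 4 SRP genes, against 0.979% of all genes, 0.490% of tRNA genes and 14.0% of snRNA genes. TGTCNGNC, a form written after these sequences had been seen, was found in the 100 bases upstream of the same 3 genes and of 1.51% of all genes, both strands counted. The windows of 28 to 32 and 50 to 60 bases were not in the plan and bracket the positions at these 3 genes. That these 3 match was therefore fixed in advance, and nothing is read from their match. The words together, with TGTCNGNC starting 50 to 60 bases upstream, occurred at 15 of 46890 genes (0.032%), of which 6 are snRNA genes, 1 is a snoRNA gene, none is a tRNA gene and none is protein-coding. A conservative peak lay at 5 of these 15 genes, which were rpr-1, mrpr-1 and 3 snRNA genes, so yrn-1 was among the 10 without. The share with such a peak was 3.58% over all nuclear genes and 11.6% over snRNA genes. As 3 of the 15 are the genes seen before the form was written, the 5 of 15 is a description only. The same pair of words thus stood at RNA genes with the strongest peak and with none in the thresholded lists.

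The loose B box form, also written after the sequences were seen, started at base 185 of each of the 4 SRP RNAs and was absent from rpr-1, mrpr-1, yrn-1 and srpr-3. Searched on both strands of the 300 bases from each gene's 5′ end, which run past the end of shorter genes, it occurred at 82.7% of tRNA genes and 3.30% of all genes. In the same 300 bases the stricter words GGTTCGA and GTTCGA, which overlap, were found at none of the 7 genes and at 65.7% and 75.3% of tRNA genes. TTTT, the usual stop signal of RNA polymerase III, started from 5 bases before to 6 bases past the last base in 7 of 7 genes, 80.6% of tRNA genes and 26.8% of all genes. A word match is a description of the sequence and not a binding site.

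The genes for the protein partners of these RNAs and of RNA polymerase III had peaks at shares near those of all protein-coding genes. The list held 51 genes: 1 for Ro60 (rop-1), 10 for SRP proteins, 7 for RNase P and MRP proteins, 3 for La and La-related proteins, 12 for RNA polymerase III and 18 for its general factors and the snRNA activating complex. It was drawn up by gene and product name, was widened after the RefSeq names had been read, and includes mig-2 only through a product name. The 12 for RNA polymerase III include mafr-1, which RefSeq names as a repressor of transcription by this polymerase. In the conservative list 1 of 51 had a summit in a promoter window, against 2.82% of all protein-coding genes, and in the combined list 2 of 51, against 3.64%, so the counts are no result about these genes. They were F37F2.2, which RefSeq names as a putative SRP 19 kDa protein (signal 85.8, rank 706, summit 325 bp upstream), and, in the combined list and that of replicate 1, larp-1 (combined signal 86.4, rank 719, summit 672 bp upstream). None of the 51 had one in the list of replicate 2. No promoter window of rop-1, of the 7 RNase P and MRP protein genes, of the 12 polymerase III genes or of the 18 factor genes held a summit of a thresholded list, and nothing is read from these counts.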

How the data were processed

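Per the labels, chromatin from 2 biological replicates was sonicated to 200 to 800 bp and immunoprecipitated with an antibody against GFP. The authors deposited 8 peak lists on ce11, 4 thresholded and 4 ranked by IDR, made from alignments and a control file per the deposited README texts. How reads were aligned, how peaks were called and whether duplicates were kept is not given in the sources used here. The deposited signal per peak has an unstated scale, the deposited score is capped at 1000, and the deposited IDR columns are −log10 values. Summit offsets were read from the deposited start of each peak. The conservative list holds peaks up to an IDR of 0.01, and 969 of its 1092 peaks have the same coordinates in the combined list. Of the ranked lists of the whole series, the one whose library columns repeat values of the replicates' own lists was taken as the comparison of the libraries, and the other as the pooled list. The files hold no read counts, so depth is unknown and no interval that needs it is given.

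Genes came from Ensembl release 115 and sequence and product names from RefSeq, both for WBcel235. A peak counted at a gene when it overlapped the body and 200 bp to either side by at least 1 bp, on the 6 nuclear chromosomes, with positions 1-based. Neighbouring protein-coding genes used promoter windows from 1000 bp upstream to 500 bp downstream. Shares of all genes were computed in the same way, and no chance test was run. SRP RNAs were aligned with MAFFT 7.526. Python 3.11.15, pandas 2.3.3, numpy 2.4.6 and matplotlib 3.10.9 were used, and overlap counting was tested on simulated peaks. All 7 genes are named whatever their values, as are partner genes with a summit in a promoter window. The genes, the partner list and the tests were chosen with earlier results of these data known. Alternatives were the combined list, each replicate's list, other IDR limits, other windows and summits in place of whole peaks.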

Additional observations from a re-analysis of the deposited data

How the results depend on the processing

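The 4 genes with a conservative peak were also 4 with windows of 0, 100 and 500 bp, with summits in place of peaks and at an IDR of 0.01 in the ranked comparison. The count was 5 in the combined list and at an IDR of 0.1, 2 at an IDR of 0.001, and 2 to 3 with either replicate's list alone. The share of all genes was not computed for the other windows, for summits or at an IDR of 0.1 or 0.001. An unchanged count at those settings is a description only. The number of these genes above their list's median signal was 2, and it was 2 in the combined list, 3 and 2 in the first and second library columns, and 1 in each replicate's list (lowest 1, highest 1), where mrpr-1 lay below the median. The median summit position, 55 bp into the RNA, was 61 bp in the combined list and 9 to 51 bp with either replicate's list alone, over other sets of genes. Partner genes with a peak numbered 1 of 51 by conservative promoter windows, 2 in the combined list and 0 to 1 with either replicate's list alone. With gene bodies and 200 bp to either side, 2 had a conservative peak (F37F2.2 and C43E11.12), against 4.36% of all protein-coding genes. In that wider window only F37F2.2 had a peak of the combined list. The lists of the single replicates hold 515 and 295 peaks, against 1092 in the conservative list. Why these values moved was not tested. No paired analysis was possible because the series has 1 group and no comparison between groups. Unknown depth limits any statement on yrn-1 and srpr-1.1: a peak past the limits was not detected there, which does not show that ZTF-25 was absent.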
